A study of Mus musculus with 6 samples.

Results

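The Z-disc anchors the thin filaments at each end of a muscle sarcomere, and 10 genes of its scaffold and of the stretch response attached to it were described: Csrp3, Ankrd2, Ankrd1, Myoz1, Myoz2, Actn2, Actn3, Tcap, Ldb3 and Myot. They were chosen by name, and all 10 were among the 11815 genes measured. RNA came from the gastrocnemius, a calf muscle rich in fast fibres, in 3 libraries of lnc-ORA knockout (KO) mice (replicates 1, 2 and 3) and 3 libraries of wild-type (WT) mice (replicates 2, 3 and 4). The KO mice had lost 5147 bp of genomic sequence, which held the whole transcript of the long non-coding RNA lnc-ORA, after guides and Cas9 mRNA were injected into fertilised eggs, on a C57BL/6 background, and they were 15 weeks old when sampled. The labels give no separate age for the WT mice, no sex, no number of founder lines and no tie between libraries and animals, so p-values here speak only for variation among the libraries sequenced. The study's question was whether lnc-ORA plays a part in switches of fibre type. Values are RPKM, reads scaled by gene length and by the library's total, so levels of different genes can be set side by side.

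Alpha-actinin crosslinks actin filaments of opposite polarity at the Z-disc, and Z-disc proteins such as telethonin, cypher, myotilin and the calsarcins bind to it, to titin or to the phosphatase calcineurin. Muscle LIM protein and the muscle ankyrin repeat proteins sit at the Z-disc and the adjoining I-band, and also enter the nucleus. Their genes are known to respond to stretch and load. Several of these proteins come as fibre-type pairs: Actn3 and Myoz1 belong to fast fibres, Myoz2 to slow fibres and heart, and Ankrd2 and Csrp3 are richest in slow skeletal muscle.

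Csrp3 and Ankrd2 moved most, and the sequences just before their annotated starts are shown for that reason. Each is 140 bases of RefSeq sequence (GRCm38.p6) in the direction of transcription, ending directly before the outermost RefSeq start of the gene, and capitals mark E-boxes, the CANNTG element that MyoD-family factors bind.
Csrp3, chr7:48848052-48848191, minus strand: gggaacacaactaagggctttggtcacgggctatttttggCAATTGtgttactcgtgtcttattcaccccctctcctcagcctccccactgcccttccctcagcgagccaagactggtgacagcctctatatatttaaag
Ankrd2, chr19:42035777-42035916, plus strand: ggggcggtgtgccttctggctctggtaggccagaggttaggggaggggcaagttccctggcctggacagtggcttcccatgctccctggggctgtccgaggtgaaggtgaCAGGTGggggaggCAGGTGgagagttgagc
The Csrp3 window held 1 E-box, CAATTG, and the Ankrd2 window held 2, both CAGGTG. Both strands were searched and no match overlapped another. An E-box was present in 45.4% of 32843 RefSeq windows of the same length. The letters CATTCC (the MCAT element, 6.99% of windows), TATAAA (7.21%), the MEF2 consensus (1.56%) and the CArG box (0.862%) were not found in either window. A match of letters is a description and not a binding site.

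Of the 10 genes, 3 fell in KO muscle and none rose. Csrp3, Ankrd2 and Actn2 passed limma's test over 7574 genes at an adjusted p of 0.05, against 13.5% of all tested genes called lower and 3.83% called higher. Of the remaining 7 genes none passed. At an unadjusted p under 0.05, limma and limma-voom each had 5 of the 10 lower, adding Myoz2 and Ankrd1, and 0 higher. At that threshold 25.8% of all tested genes were lower and 7.59% higher in limma, and 26.0% lower and 7.39% higher in limma-voom. The median log2 fold change of the 10 was -0.28, beside -0.09 over all tested genes. Scaling mattered for the balance of calls: 1021 genes were lower and 290 higher as reported, 665 lower and 602 higher with library medians made equal (a shift of 0.10 on the log2 scale), and 465 lower and 768 higher with totals taken without the 10 most abundant genes (a shift of 0.14). The same 2 scalings gave 3 lower and 0 higher, and 2 lower and 1 higher, among the 10 genes. Their median log2 fold change was then -0.18 and -0.11, beside 0.012 and 0.047 over all tested genes. Reads of Myh4, the type IIb fibre myosin, made up 24.5 to 25.2% of the total in KO libraries and 18.7 to 21.5% in WT libraries.

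**Figure D1:**
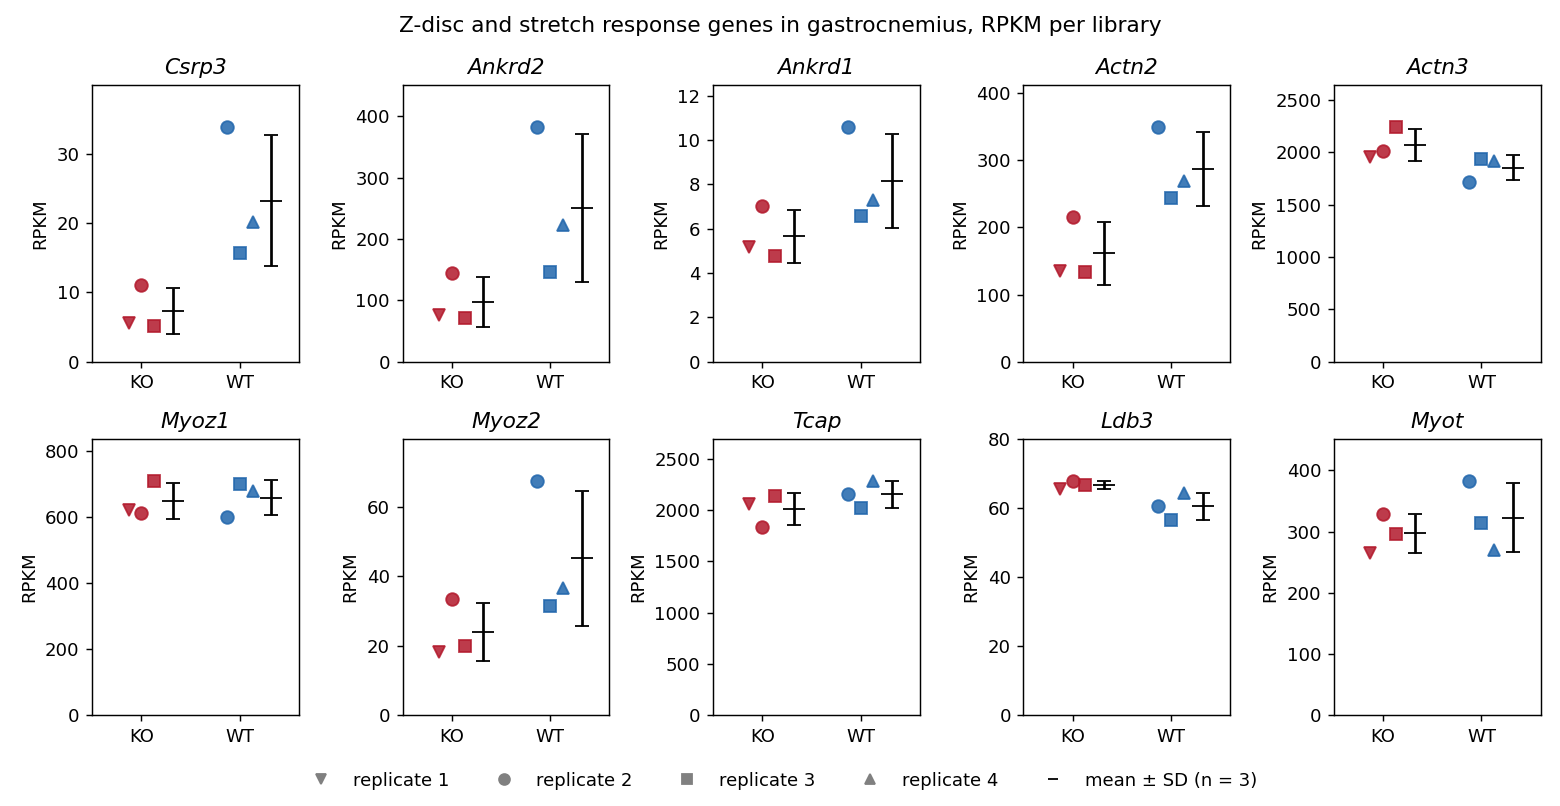
RPKM (vertical axes, from 0) of each of the 10 genes in every KO and WT library, with marker shapes for replicate numbers and black bars for the mean ± SD of 3 libraries. Csrp3, Ankrd2 and Actn2 are lower in every KO library than in any WT library, and the circle of replicate 2 is highest among the KO points of 7 genes and among the WT points of 6.

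Csrp3 encodes muscle LIM protein, a Z-disc LIM-domain protein that promotes myogenic transcription. It stood at 5.61, 11.1 and 5.21 RPKM in KO replicates 1, 2 and 3, against 33.8, 15.6 and 20.1 RPKM in WT replicates 2, 3 and 4. KO replicate 2 came nearest to the WT range, but the groups did not overlap. The means were 7.31 ± 3.29 RPKM in KO and 23.2 ± 9.46 in WT (SD, n = 3 each). The log2 fold change was -1.54 (SE 0.32, limma adjusted p = 0.0161). The call was lost without KO replicate 1 (adjusted p = 0.0633) or KO replicate 3 (0.067).

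Ankrd2 encodes a muscle ankyrin repeat protein of the I-band that is induced by stretch. Its values were 76.6, 145 and 70.9 RPKM in KO replicates 1, 2 and 3, against 382, 146 and 223 RPKM in WT replicates 2, 3 and 4. The highest KO library and the lowest WT library stood next to each other without overlapping. The means were 97.4 ± 41.1 RPKM in KO and 250 ± 120 in WT (SD, n = 3 each). The log2 fold change was -1.32 (SE 0.37, limma adjusted p = 0.045). That call was close to the threshold and ended without KO replicate 1 (adjusted p = 0.14), KO replicate 3 (0.15), WT replicate 2 (0.0806) or WT replicate 4 (0.0671), and with totals taken without the 10 most abundant genes (0.0561).

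Ankrd1 encodes the related protein CARP, best known from heart, and was the lowest of the 10. It measured 5.18, 7.03 and 4.78 RPKM in KO replicates 1, 2 and 3, against 10.6, 6.57 and 7.31 RPKM in WT replicates 2, 3 and 4. The groups overlapped, since KO replicate 2 exceeded WT replicate 3. Its log2 fold change of -0.45 (SE 0.18) did not pass (limma adjusted p = 0.124) and was -0.27 without WT replicate 2.

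The alpha-actinins are the crosslinkers themselves. Actn2, the isoform present in all skeletal fibres and in heart, stood at 135, 216 and 134 RPKM in KO replicates 1, 2 and 3, against 349, 244 and 269 RPKM in WT replicates 2, 3 and 4. All KO libraries were below all WT libraries. The means were 162 ± 47.2 RPKM in KO and 287 ± 54.9 in WT (SD, n = 3 each). The log2 fold change was -0.85 (SE 0.21, limma adjusted p = 0.029). The call was lost without KO replicate 1 (adjusted p = 0.103), KO replicate 3 (0.11), WT replicate 2 (0.0621) or WT replicate 3 (0.0501).

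Actn3, the isoform restricted to fast fibres, measured 1953, 2011 and 2239 RPKM in KO replicates 1, 2 and 3, against 1713, 1933 and 1917 RPKM in WT replicates 2, 3 and 4. The lowest KO library stood just above the highest WT library, and the log2 fold change of 0.16 (SE 0.10) did not pass (limma adjusted p = 0.306) and was 0.098 without KO replicate 3. Groups did not overlap for 5 of the 10 genes (Csrp3, Ankrd2 and Actn2 lower, Actn3 and Ldb3 higher in KO), beside 39.2% of all tested genes, 30.0% lower and 9.22% higher. Only 0.0675% of the 50-base stretches of the longest Actn2 transcript and 0.0705% of those of Actn3 occur in the other gene, and none of the other 8 genes shared such a stretch with another gene. In the GENCODE M21 annotation (GRCm38) all 10 are protein-coding genes and none has an exon that overlaps an exon of another gene. Csrp3 lies at chr7:48830398-48848033, Ankrd2 at chr19:42036000-42045110, Actn2 at chr13:12269426-12340760 and Actn3 at chr19:4861216-4877909.

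Because a ratio within a library does not depend on how libraries are scaled, the fibre-type pairs were also read as shares. Actn2 made up 6.46, 9.7 and 5.63% of the summed Actn2 and Actn3 RPKM in KO replicates 1, 2 and 3, against 16.9, 11.2 and 12.3% in WT replicates 2, 3 and 4. The shares did not overlap, and the mean log2 ratio of Actn3 to Actn2 was 3.71 ± 0.44 in KO and 2.70 ± 0.36 in WT (SD, n = 3 each). The difference of 1.01 had a two-sided exact permutation p of 0.1, the smallest that 3 against 3 libraries can give. The same holds for the other ratios below, so no ratio could pass 0.05.

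Calsarcins link alpha-actinin to calcineurin. Myoz1, the calsarcin of fast fibres, measured 620, 614 and 710 RPKM in KO replicates 1, 2 and 3, against 599, 700 and 678 RPKM in WT replicates 2, 3 and 4, which overlap (limma log2 fold change -0.02, SE 0.10, adjusted p = 0.89). Myoz2, the calsarcin of slow fibres, measured 18.3, 33.5 and 19.8 RPKM in KO replicates 1, 2 and 3, against 67.5, 31.4 and 36.7 RPKM in WT replicates 2, 3 and 4. KO replicate 2 exceeded WT replicate 3, and the log2 fold change of -0.86 (SE 0.30) did not pass (limma adjusted p = 0.089) and was -0.54 without WT replicate 2.
Myoz2 made up 2.87, 5.18 and 2.72% of the summed calsarcin RPKM in KO replicates 1, 2 and 3, against 10.1, 4.29 and 5.13% in WT replicates 2, 3 and 4. These shares overlapped, and the difference of 0.87 in the log2 ratio of Myoz1 to Myoz2 had an exact permutation p of 0.3 (two-sided, n = 3 each). Without WT replicate 2 that difference was 0.47.

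**Figure D2:**
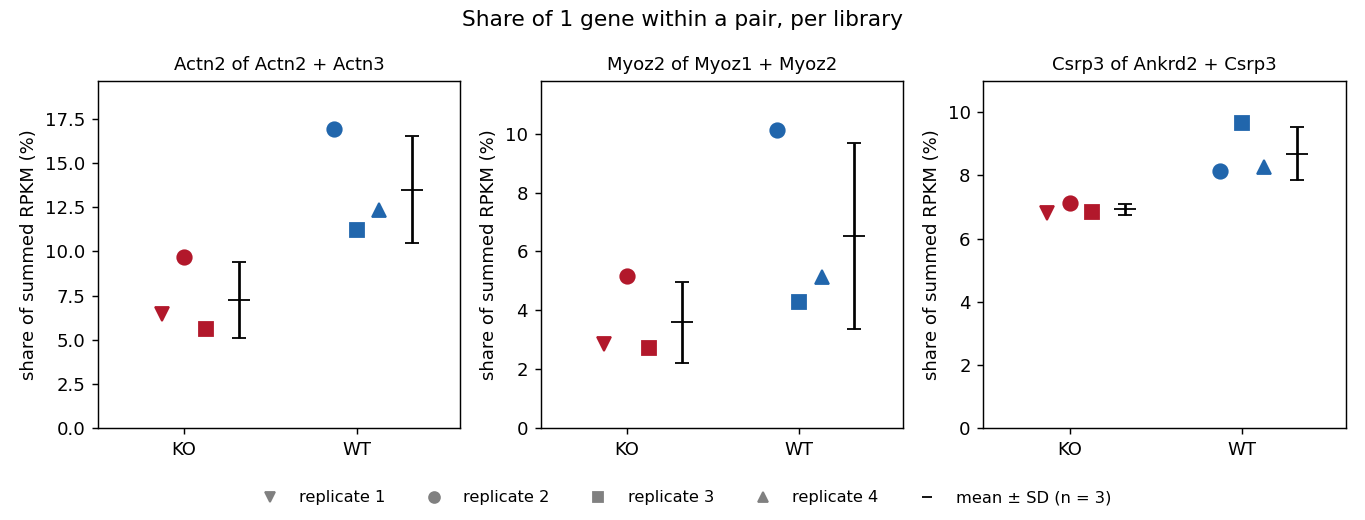
Share (%) of 1 gene in the summed RPKM of a pair, in every KO and WT library, with black bars for the mean ± SD of 3 libraries. The Actn2 share is at most 9.7% in KO and at least 11.2% in WT, the Myoz2 shares overlap, and the Csrp3 shares lie at 6.82 to 7.12% in KO and 8.13 to 9.67% in WT.

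The remaining structural members did not pass the test. Tcap, the telethonin cap that joins titin molecules at the Z-disc, measured 2057, 1840 and 2140 RPKM in KO replicates 1, 2 and 3, against 2159, 2024 and 2287 RPKM in WT replicates 2, 3 and 4 (limma log2 fold change -0.10, SE 0.10, adjusted p = 0.512). Myot, the actin-bundling myotilin, measured 266, 329 and 297 RPKM in KO replicates 1, 2 and 3, against 383, 315 and 270 RPKM in WT replicates 2, 3 and 4 (-0.11, SE 0.14, adjusted p = 0.621). Both ranges overlapped between genotypes.
Ldb3, the PDZ-LIM protein cypher, was the steadiest of the 10 in KO, at 65.6, 67.9 and 66.7 RPKM in KO replicates 1, 2 and 3, against 60.6, 56.6 and 64.3 RPKM in WT replicates 2, 3 and 4. Its KO libraries were all above its WT libraries, with means of 66.7 ± 1.19 RPKM in KO and 60.5 ± 3.85 in WT (SD, n = 3 each). The log2 fold change of 0.14 (SE 0.08) did not pass (limma adjusted p = 0.258), but passed as 0.32 with totals taken without the 10 most abundant genes (adjusted p = 0.0272).

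**Figure D3:**
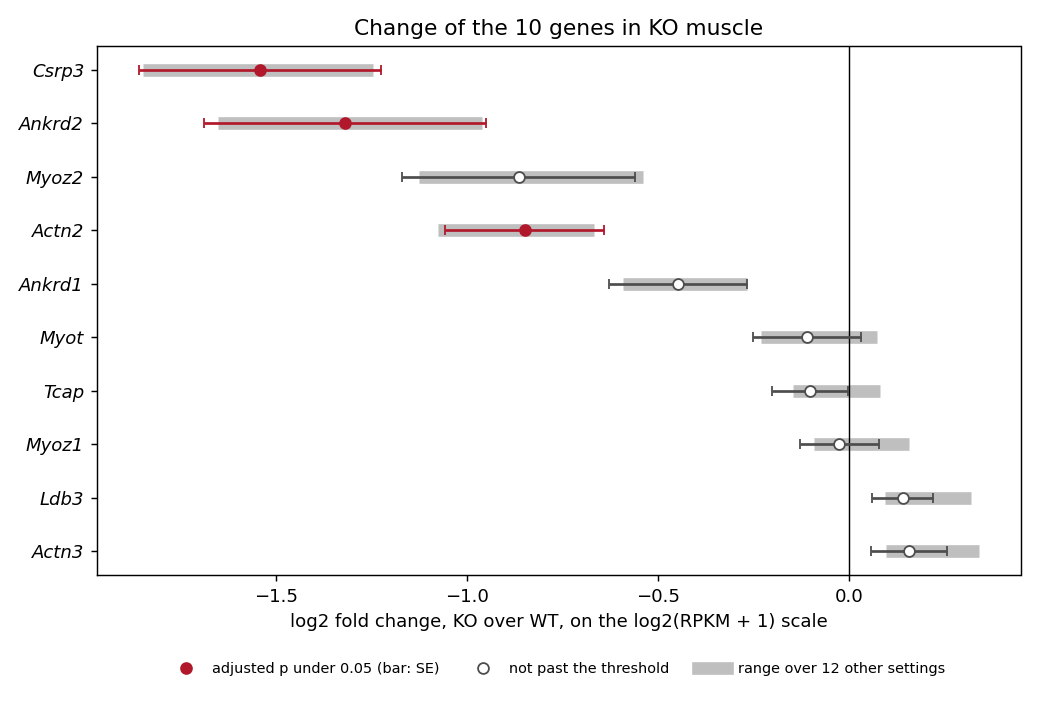
Log2 fold change of KO over WT on the log2(RPKM + 1) scale, with SE bars from limma (filled red points passed an adjusted p of 0.05) and grey bands for the range over 12 other settings. Csrp3, Ankrd2, Myoz2, Actn2 and Ankrd1 lie below 0 and Ldb3 and Actn3 above 0 across the whole band, while the bands of Myot, Tcap and Myoz1 cross 0.

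In level, the set spanned more than 2 orders of magnitude. Tcap ranked 32 and Actn3 ranked 34 among all 11815 genes by mean RPKM, and Ankrd1 ranked 2448. By group means in KO muscle the order was Actn3, Tcap, Myoz1, Myot, Actn2, Ankrd2, Ldb3, Myoz2, Csrp3 and Ankrd1. There the ranges of Actn3 and Tcap, of Actn2 and Ankrd2, and of Csrp3 and Ankrd1 overlapped between neighbours. In WT muscle Tcap stood above Actn3 with ranges that did not overlap, and the rest kept the same order. Myot, Actn2 and Ankrd2, and likewise Ldb3, Myoz2 and Csrp3, overlapped with their neighbours in WT. Each value rested on 516 to 396195 reads, so counting error is small beside the spread between libraries for all 10.

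Replicate 2 was the highest KO library and the highest WT library for Csrp3, Ankrd2, Ankrd1, Myoz2, Actn2 and Myot. Likeness was measured as the root mean square distance in log2(RPKM + 1), centred on each gene's mean over 6 libraries, and Ankrd2 was the nearest to Csrp3 of 7573 genes (0.15), and Csrp3 the nearest to Ankrd2. Acot2, a mitochondrial acyl-CoA thioesterase, came next for both (0.19 from Csrp3 and 0.22 from Ankrd2), then the small heat shock gene Hspb7 (0.26 and 0.25). The fourth place went to Tmem140 for Csrp3 (0.27) and to Myoz2 for Ankrd2 (0.27). Among the other members, Myoz2 ranked 13 from Csrp3. Actn2 ranked 29 from Csrp3 and 15 from Ankrd2, Ankrd1 ranked 220 and 133, and Myot ranked 2361 and 2163. This distance includes the difference between genotypes and all genes share the same 6 libraries, so it is a description only. Ankrd2 exceeded Csrp3 by 13.7, 13.04 and 13.6 times in KO replicates 1, 2 and 3, against 11.3, 9.34 and 11.1 times in WT replicates 2, 3 and 4. This ratio did not overlap between genotypes (log2 difference 0.35, two-sided exact permutation p of 0.1, n = 3 each).

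**Figure D4:**
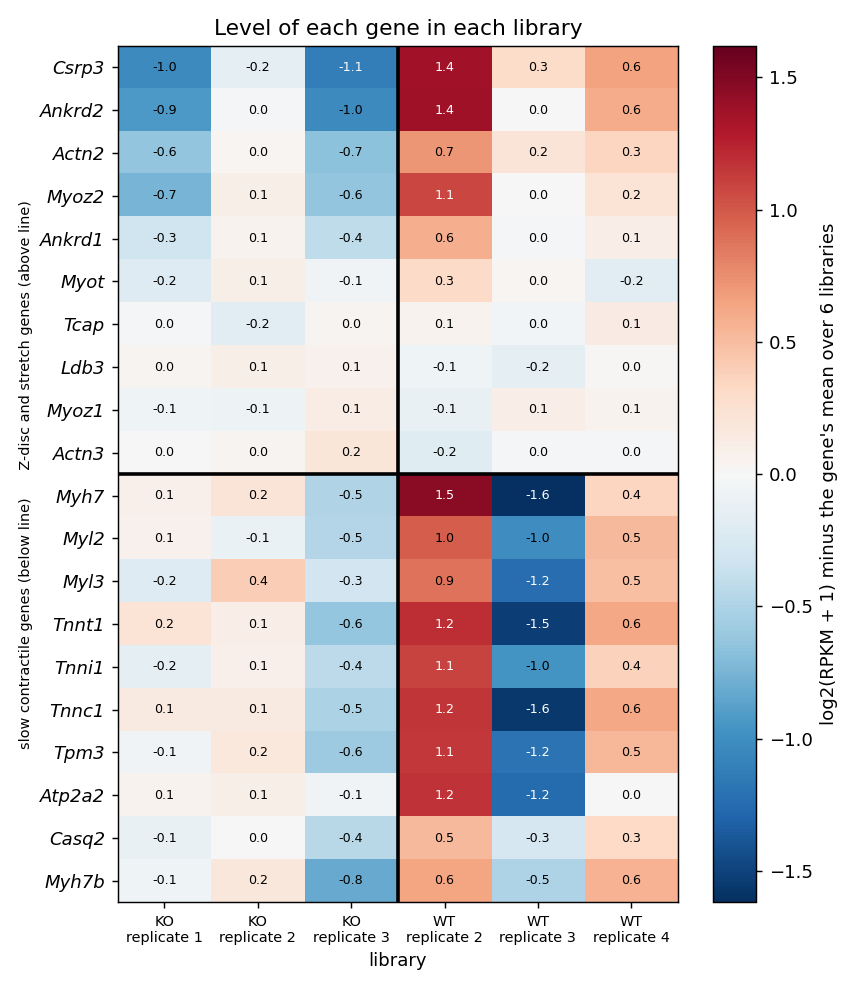
Each cell is log2(RPKM + 1) of a gene (rows) in a library (columns, KO left of the vertical line) minus the gene's mean over 6 libraries; the 10 genes stand above the horizontal line and 10 slow contractile genes below it. WT replicate 2 is highest for all 10 slow contractile genes and WT replicate 3 is lowest for 8 of them. In WT replicate 3, Csrp3, Ankrd2 and Actn2 lie above every KO library, and Myoz2 and Ankrd1 lie below KO replicate 2.

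All 10 slow-fibre markers were measured and tested, none passed in limma or in limma-voom, and 0 passed at an unadjusted p under 0.05 in limma. Their median log2 fold change was -0.26 (-0.16 with equal library medians and -0.076 with totals taken without the 10 most abundant genes), and their summed level was 337 to 547 RPKM in KO libraries and 177 to 1102 in WT libraries. Tnnt1, the slow troponin T, was picked outside the rule for named genes. It measured 178, 166 and 99.3 RPKM in KO replicates 1, 2 and 3, against 351, 52.8 and 236 RPKM in WT replicates 2, 3 and 4. In WT replicate 3, 8 of the 10 markers were at their lowest of 6 libraries. Csrp3, Ankrd2, Actn2, Myoz2 and Ankrd1 were at their lowest WT level there. Csrp3, Ankrd2 and Actn2 stayed above every KO library, Ankrd2 by 146 against 145 RPKM, which only restates that their groups did not overlap. Myoz2 (31.4 against 33.5 RPKM) and Ankrd1 (6.57 against 7.03 RPKM) were below KO replicate 2. In WT replicate 2, all 10 markers were at their highest, as were Csrp3, Ankrd2, Actn2, Myoz2, Ankrd1 and Myot. In bulk muscle, fewer fibres of a type and less RNA per fibre cannot be told apart. Of 12 fast-fibre markers 2 fell and none rose, beside 13.5% and 3.83% of all tested genes. The 2 were Myh1 and Myh2, the myosins of type IIx and IIa fibres (log2 fold changes -1.09 and -0.90, limma adjusted p = 0.0225 and 0.0261). Both calls were lost without KO replicate 1, KO replicate 3, WT replicate 2 or WT replicate 3 (highest adjusted p 0.0885 for Myh1 and 0.102 for Myh2), and Myh4 rose with totals taken without the 10 most abundant genes (0.48, adjusted p = 0.0323). The part of fibre composition in the changes of Csrp3, Ankrd2 and Actn2 was not tested.

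Other Z-disc proteins were read from a list of 32 genes, of which 31 were tested. In KO 4 were higher and 2 lower, beside 3.83% and 13.5% of all tested genes, and the median log2 fold change was 0.10. With equal library medians this was 5 higher, 2 lower and a median of 0.20, and with totals taken without the 10 most abundant genes 6 higher, 2 lower and 0.26. The LIM-only genes fell: Fhl3 to 14.8 ± 1.099 RPKM in KO, against 38.1 ± 8.31 in WT (log2 fold change -1.29, SE 0.16, limma adjusted p = 0.00279), and Fhl1 to 25.1 ± 8.20 RPKM, against 53.1 ± 3.39 (-1.097, SE 0.19, adjusted p = 0.00949; SD, n = 3 each). Nexn, the actin-binding nexilin, averaged 848 ± 73.3 RPKM in KO and 536 ± 44.1 in WT (0.66, SE 0.10, adjusted p = 0.00679), and Palld, the actin scaffold palladin, averaged 6.24 ± 0.53 RPKM in KO and 3.70 ± 0.36 in WT (0.62, SE 0.09, adjusted p = 0.00586). Fhl3, Fhl1, Nexn and Palld were picked as the 4 largest calls of the list, and all 4 passed in each of the 12 other settings. Their groups did not overlap, which held for 11 of the 31 list genes and for 39.2% of all tested genes. The other 2 that rose, named after their values were seen, were Synpo2 (0.59) and Synpo2l (0.55), both actin-binding Z-disc proteins. Synpo2l no longer passed without any 1 of the KO libraries or without WT replicate 3 (highest adjusted p 0.0996). Desmin (Des, -0.02), filamin C (Flnc, -0.19) and the further calsarcin Myoz3 (0.44) did not pass (adjusted p = 0.899, 0.592 and 0.116) and were likewise picked after their values were seen.

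A list of titin N2A partners and stretch-responsive genes had 21 tested members. In KO 2 were higher and 4 lower, beside 3.83% and 13.5% of all tested genes, and the median log2 fold change was -0.04. With equal library medians this was 4 higher and 4 lower with a median of 0.065, and with totals taken without the 10 most abundant genes 5 higher and 4 lower with a median of 0.14, so the sign of the median turned. Besides Fhl1, the matricellular gene Cyr61 fell to 1.46 ± 0.03 RPKM in KO, against 3.91 ± 0.88 in WT (log2 fold change -0.98, SE 0.13, limma adjusted p = 0.00353). Ctgf, its relative, fell to 1.78 ± 0.39 RPKM in KO, against 4.18 ± 1.14 in WT (-0.88, SE 0.17, adjusted p = 0.0127). The LIM gene Lmcd1 fell to 15.2 ± 3.65 RPKM in KO, against 30.1 ± 7.25 in WT (-0.94, SE 0.19, adjusted p = 0.0161; SD, n = 3 each). Lmcd1 no longer passed when KO replicate 1 or KO replicate 3 was left out (highest adjusted p 0.0697). The muscle RING finger gene Trim55 (0.36) and the mechanosensitive channel gene Piezo1 (0.34), named after their values were seen, rose. Trim55 no longer passed when any of the 6 libraries was left out (highest adjusted p 0.11), and Piezo1 passed when WT replicate 2 was left out but not without any other library (highest 0.148). Ankrd23, the third muscle ankyrin repeat gene, was at 808 RPKM in KO and 619 in WT on average and did not pass (log2 fold change 0.36, adjusted p = 0.159), and it too was picked after its values were seen. Of 6 tested calcineurin genes and targets 1 fell, beside 13.5% of all tested genes. It was Nfatc1 (-0.26, limma adjusted p = 0.0394), which passed in 4 of the 12 other settings and, with a library left out, in 1 of 6.

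In the authors' deposited table, none of the 10 genes had an FDR under 0.05 (1.62% of its 11815 genes did), and 5 had an unadjusted p under 0.05 (22.2% of its genes did). These 5 were Csrp3, Ankrd2 and Actn2, lower in KO, and Actn3 and Ldb3, higher in KO. Myoz2 and Ankrd1, lower at that threshold in limma, were not among them. Myoz1 (0.12), Tcap (0.054) and Myot (0.024) had positive log2 fold changes there, against negative ones in limma. That table gives log2 fold changes of -1.23 for Csrp3 (FDR 0.135), -1.03 for Ankrd2 (0.162) and -0.52 for Actn2 (0.164). The smallest FDR among the 10 in the authors' deposited table was that of Ldb3, at 0.0973 with a log2 fold change of 0.27.

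Totals of counted reads, solved from the RPKM, ran from 55607994 to 68718183 in KO libraries and from 54370181 to 69693905 in WT libraries. No pair of libraries of a genotype agreed within sampling noise (lowest chi-square per degree of freedom 25.4). The identity markers of skeletal muscle (Ckm, Acta1, Ttn, Myh4 and Tnnt3) summed to 78560 to 82470 RPKM in KO and 69160 to 74710 in WT. Most of that gap was Myh4, which averaged 41340 RPKM in KO and 33600 in WT. The log2 fold changes of Ckm, Acta1, Ttn and Tnnt3 were 0.10, 0.05, 0.10 and 0.05, and none of the 5 genes passed in limma. The deleted locus was not analysed here, and genotypes were taken as labelled. Schwann cell markers moved with genotype: Pmp22 fell to 2.69 ± 0.50 RPKM in KO, against 11.1 ± 2.53 in WT (SD, n = 3 each), and Prx and Mbp fell as well (log2 fold changes -1.14 and -0.74, limma adjusted p = 0.00104 and 0.00184). Prx averaged 0.51 RPKM in KO and 2.35 in WT, and Mbp 0.34 and 1.23. At these low levels the log2(RPKM + 1) scale understates the change, and limma-voom gave -2.18 for Prx and -1.85 for Mbp. Of 4 tested endothelial markers 1 fell, Cldn5, beside 13.5% of all tested genes. Sums over 5 endothelial markers were 11.4 to 12.4 RPKM in KO and 14.4 to 23.1 in WT. Sums over 7 fibroblast markers were 22.1 to 26.8 RPKM in KO and 14.7 to 24.6 in WT. Of 5 tested fibroblast markers 2 rose, Smoc2 and Col3a1, beside 3.83% of all tested genes. Both calls were lost without any 1 library other than WT replicate 2 (highest adjusted p 0.137 for Smoc2 and 0.107 for Col3a1). None of the tested tenocyte (2), smooth muscle (4) and satellite cell (1) markers passed in limma, although the smooth muscle marker Rgs5 rose under both other scalings (adjusted p = 0.0479 and 0.0421). No macrophage marker reached the filter, and none of the 3 adipocyte markers (Adipoq, Plin1 and Cidec) was among the genes measured. The part of these cells in the results above was not tested.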

How the data were processed

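Gastrocnemius RNA of 3 KO and 3 WT libraries was sequenced after mRNA fragmentation and random priming, per the labels' protocols. The submitters' processing notes name GRCm39; the aligner, read counter, annotation release and strandedness were not given in the sources used here. The authors deposited RPKM per gene and library, a unit inferred from the values since the header names none, and their own log2 fold change and log2 CPM, F score, p-value and FDR, per the file headers. Library totals were solved from the RPKM and GENCODE M21 lengths, as those that made most of the values searched whole. Whole reads (within 0.02) came back for all 11815 genes when RPKM was multiplied by length and library total, in part because the totals were chosen for that. GENCODE M21 lengths did so for 80.4% of the genes with a single entry there and for 4 of the 10 genes. The rest needed lengths solved from the RPKM themselves.

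Genes reaching 1 RPKM in 3 or more libraries (7574) were tested with limma-trend (limma 3.58.1, R 4.3.3) on log2(RPKM + 1), with a genotype term alone and p adjusted by Benjamini-Hochberg over all of them. Fold changes on this scale understate the change of low genes. The fit was tested on simulated data for 7435 genes with 198 changed, where 6.11% of 180 calls were false. It recovered 58.8% of 1.5-fold and 98.4% of 2-fold changes, and the median fitted log2 change was 0.746 of the true one. The simulated spread was set at the same value for every gene and not taken from these libraries, so these shares need not hold here. Ratios of RPKM were compared by exact permutation (scipy 1.17.1). The 10 genes, the lists and the tests were chosen with earlier results of these data known. Named list genes were the 4 largest called changes per list, or else the gene of smallest p, and the 4 genes nearest to Csrp3 and to Ankrd2; not all of them are described, and an item the rule took is not reported here. Loci, shared 50-base stretches and upstream windows come from GENCODE M21 and RefSeq on GRCm38, not the build of the notes.
The 12 alternatives were a pseudocount of 0.1, all rows kept, both other scalings, each of 6 libraries left out, a replicate block, and limma-voom run on the recovered reads.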

Additional observations from a re-analysis of the deposited data

How the results depend on the processing

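The signs of Csrp3, Ankrd2, Ankrd1, Myoz2, Actn2, Actn3 and Ldb3 held in all 12 alternatives. Csrp3 passed in 10 of them, Actn2 in 8 and Ankrd2 in 7. Leaving out a library gave 0 to 3 of the 10 genes lower (0 without KO replicate 1 or 3, 1 without WT replicate 2), 354 to 1293 lower genes and 117 to 344 higher genes overall. Equal library medians gave 665 lower and 602 higher genes, and totals without the 10 most abundant genes gave 465 and 768, with 1 of the 10 genes higher, Ldb3. The sign of Myoz1 turned with equal medians (0.0764), without the 10 most abundant genes (0.158), with the replicate block (0.0275) and without KO replicate 1 (0.00539), KO replicate 2 (0.0127) or WT replicate 3 (0.0209), its values without a library running from -0.0922 to 0.0209. Without the 10 most abundant genes Tcap (0.0814) and Myot (0.0726) turned, and Myot also without WT replicate 2, its values without a library running from -0.229 to 0.0212. A pseudocount of 1 lowered the log2 difference in the Ankrd2 to Csrp3 ratio to 0.22. The causes were not tested, but fewer libraries entered where 1 was left out.

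Replicate numbers 2 and 3 occur in both genotypes, and the labels do not say that a number marks a shared litter or day. Deviations from the group means correlated at 0.48 between KO and WT replicate 2 and at 0.27 between KO and WT replicate 3, across 7574 genes. The value was 0.43 between KO replicate 1 and WT replicate 4, whose numbers differ, and -0.39 to -0.052 for the remaining pairs. Deviations cancel out within a genotype, so these values depend on one another and cannot decide whether a shared number marks a pair. With replicate number as a block, only replicates 2 and 3 set the KO against WT difference, since KO replicate 1 and WT replicate 4 had no partner. This fit assumes a pairing that the labels do not give, and it leaves little from which to estimate spread. In it 1171 of all genes were lower and 377 higher. Of the 10 genes 5 were lower, adding Myoz2 (limma adjusted p = 0.00618) and Ankrd1 (0.0203). The log2 difference in the Actn3 to Actn2 ratio over replicates 2 and 3 was 1.002.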
